A study of Mus musculus with 12 samples.

Results

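Leukotriene and prostaglandin synthesis was followed through 10 mouse genes while PU.1 was restored in an acute myeloid leukemia. The genes were listed by symbol and matched to the Entrez identifiers of the count files, and all 10 had a row among the 27179 genes counted. They are Pla2g4a for arachidonate release, Alox5, Alox5ap, Lta4h and Ltc4s for leukotrienes, Alox12 for oxygenation at the 12 position, and Ptgs1, Ptgs2, Ptges and Hpgds for prostanoids. Of these, 6 had enough reads to be tested, and Ltc4s, Alox12, Ptgs2 and Hpgds did not.

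The cells were AML246, a cytogenetically normal C57BL/6 leukemia that lacks p53 and carries a Dox-regulated shRNA against PU.1 (shPU.1) coupled to GFP. All groups share this background, and all libraries come from this 1 leukemia. Recipient mice stayed untreated or received Dox for 2, 4 or 6 days, which turns the shRNA and its GFP off, and GFP+ bone marrow cells were sorted for total RNA. Each of the 4 groups had 3 libraries. The sorting gate was GFP high in untreated mice and moved to lower GFP with the days, so gate and time on Dox cannot be told apart, and no group received Dox without the shRNA. Titles label the replicates as technical, but the design text has mice in triplicate. The spread behind each p-value is that between these libraries, and it may be technical. The labels give no ages.

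Eicosanoids are lipid mediators made on demand from arachidonate, which cytosolic phospholipase A2 cuts out of membrane phospholipids. In the leukotriene branch, 5-lipoxygenase, helped by its activating protein FLAP, makes leukotriene A4, which is hydrolysed to the neutrophil attractant leukotriene B4 or joined to glutathione to give cysteinyl leukotrienes. In the prostanoid branch, a cyclooxygenase makes prostaglandin H2, which terminal synthases turn into prostaglandins E2 and D2 or thromboxane. Mature neutrophils are known as makers of leukotriene B4, whereas cysteinyl leukotrienes and prostaglandin D2 are known products of mast cells and eosinophils.

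Total counts were 4918920 to 7356166 per library, and Spi1, which encodes PU.1, served as a check of the labels. Spi1 had 54.2, 67.5 and 65.9 CPM in the untreated libraries, 107, 98.8 and 123 CPM at day 2, 244, 267 and 269 CPM at day 4 and 497, 439 and 438 CPM at day 6. CPM here is the read count scaled to library size, adjusted by TMM factors, which assume that most genes do not change. The TMM factors were 0.737 to 0.847 at day 6 and 1.02 to 1.15 elsewhere. The marker genes changed with the days too. The summed level of 12 myeloid progenitor and blast markers was 8652 to 11343 CPM at day 6 and 29343 to 33475 CPM in untreated libraries. Of these 12, 4 were called lower and 1 higher at day 4, and 6 lower and 2 higher at day 6. Mpo averaged 4170 CPM at day 6 and 18038 CPM in untreated libraries, whereas Cebpe averaged 520 and 67.1 CPM and Ms4a3 489 and 65.7 CPM. The summed level of 12 mature neutrophil markers was 63480 to 137964 CPM at day 6 and 858 to 1921 CPM in untreated libraries. Monocyte and macrophage markers were called higher for 8 of 12 genes at day 4 and 10 of 12 at day 6 (1 lower). Eosinophil markers were called higher for 7 of 8 tested at day 4 and 3 of 8 at day 6. Ccr3, among the 8, averaged 0.376 CPM in untreated libraries, 0.253 CPM at day 2 and 5.71 CPM at day 4. It had enough reads to be tested only through the later days, where it is high. Of all genes, 22.1% were called higher and 20.2% lower at day 4, and 35% higher and 32.9% lower at day 6. The monocyte and macrophage markers summed to 6314 to 6454 CPM at day 4, 2845 to 4666 CPM at day 6 and 3559 to 4784 CPM in untreated libraries. Ly6c2 alone averaged 1969 CPM at day 6 and 4168 CPM in untreated libraries. The 11 mast cell and basophil markers summed to 120 to 209 CPM at day 6 and 86.6 to 123 CPM in untreated libraries, and of the 5 tested, 2 were called higher and 2 lower at day 6. Most of that sum was Hdc, which averaged 168 CPM at day 6 and 73.3 CPM in untreated libraries, and Mcpt8 averaged 3.35 CPM at day 6 and 14.8 CPM in untreated libraries. The mast cell protease genes Tpsab1 and Mcpt4 had 0 reads and Tpsb2 had 1 in all. The 12 megakaryocyte and platelet markers summed to 61.9 to 117 CPM at day 6 and 20.4 to 25.5 CPM in untreated libraries. Of the 4 tested, 2 were called higher and 1 lower at day 6. The largest part of that sum was Itgb3, which averaged 89.7 CPM at day 6 and 12.5 CPM in untreated libraries. Pf4 and Ppbp of the same list had at most 5 reads in a library. Replicate 2 at day 6 stood apart from the others of its group: gene counts varied 44.3 and 38.6 times more than counting error between it and replicates 1 and 3, and 4.77 times between replicates 1 and 3.

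By the calls against untreated, Ptgs1 was higher at all 3 days, Alox5 and Alox5ap at days 4 and 6, and Lta4h, Ptges and Pla2g4a at day 6. The line between Ptgs1 and Alox5 at day 2 is not firm: Alox5 had the larger log2 fold change there (1.24, against 0.79 for Ptgs1) with an adjusted p just above the threshold, and the call of Ptgs1 was lost in 3 fits that left out a library. At day 2, 1 member was called higher and 0 lower at an adjusted p under 0.05 (edgeR quasi-likelihood test), while 1.05% of all 12057 genes tested were called higher, 0.406% lower and 1.45% in either direction. At day 4, 3 members were called higher and 0 lower, against 22.1% of all genes higher, 20.2% lower and 42.4% in either direction. At day 6 all 6 tested members were called higher, against 35% of all genes higher and 32.9% lower. At day 6, 67.9% of all genes were called in either direction, so a call there is common. The median log2 fold change of the 6 tested members was 0.30 at day 2, 0.55 at day 4 and 1.71 at day 6, beside medians of all genes at 0.00, -0.01 and 0.00. Libraries did not overlap with untreated ones, in either direction, for 3 members at day 2, 4 at day 4 and 6 at day 6, and for 24.7%, 58.3% and 68.2% of all genes tested. Among the members, Lta4h at day 4 lay below the untreated libraries, and the rest of these lay above. A test of any change over the 4 groups called all 6, as it did 68.7% of all genes.

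**Figure D1:**
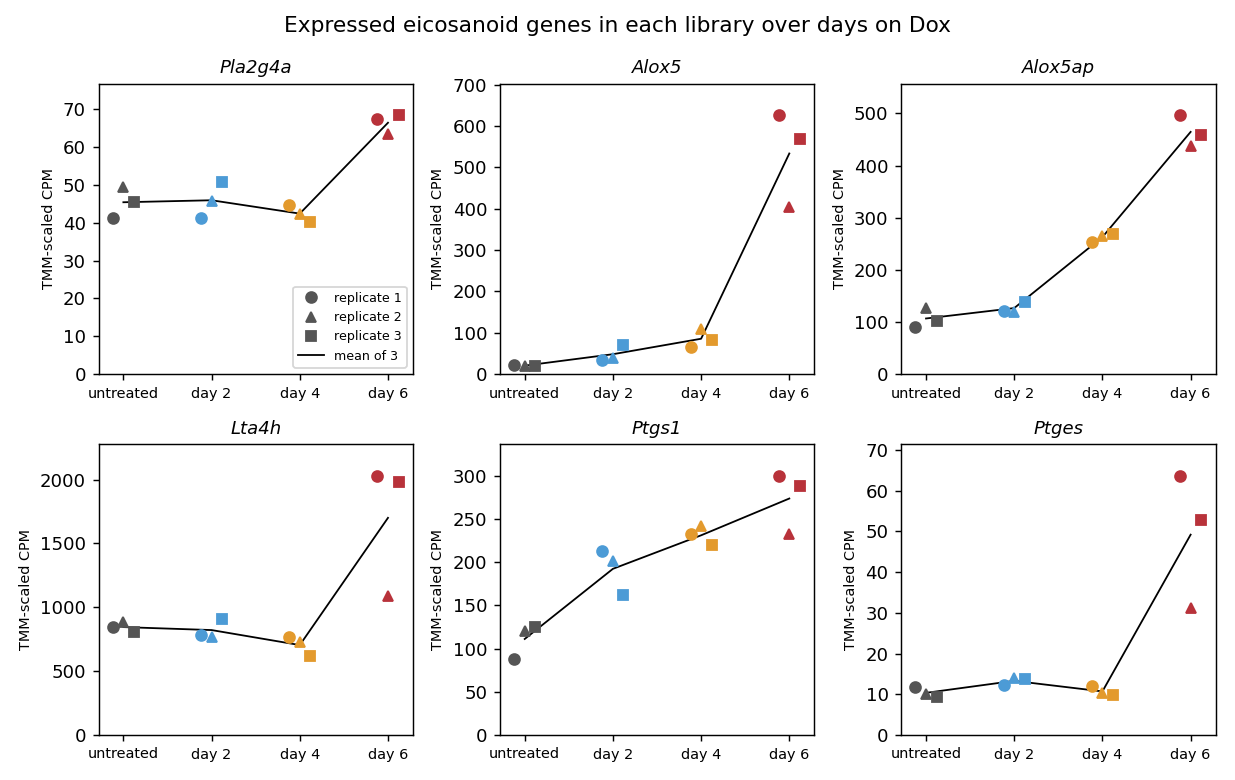
Normalised read counts (CPM, TMM-scaled, linear axes from 0) of the 6 tested genes in each of the 12 libraries, untreated to day 6, with symbols for replicates and a line through the mean of 3. Alox5 sits at 405 to 627 CPM at day 6 and at 19.4 to 21.98 CPM in untreated libraries. On this scale replicate 2 at day 6 is the lowest of its group for all 6 genes. With library totals it is the highest of its group for Pla2g4a (53.6 CPM) and Alox5ap (370 CPM).

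PU.1 binds purine-rich DNA around a GGAA core, and GAGGAA and the longer GAGGAAGT are forms of its consensus. Promoter windows of 250 bases before to 50 bases after the start, from RefSeq GRCm38.p6, matched 9 of the 10 members and gave 10 windows. Alox5ap had no window. GAGGAA was present on either strand in 8 of the 10 windows, and the 2 windows of Pla2g4a had no match. The windows with a match were those of Alox5, Lta4h, Ptgs1 and Ptges, and of Ltc4s, Alox12, Ptgs2 and Hpgds, which had too few reads to be tested. The matches thus do not separate members that rose from members with few reads. The same letters stood in 28.3% of all 32851 windows. GAGGAAGT, which contains GAGGAA, stood in 3.2% of all windows and, among the members, in those of Ptgs1 and Hpgds. The windows below were chosen after the values were seen: Alox5 as the gene with the largest change, and Ptgs1 and Hpgds as the genes with the longer form. Each is written 5′ to 3′ on the strand of the gene, with GAGGAA in capitals.
Alox5 chr6:116461129-116461428 (minus strand): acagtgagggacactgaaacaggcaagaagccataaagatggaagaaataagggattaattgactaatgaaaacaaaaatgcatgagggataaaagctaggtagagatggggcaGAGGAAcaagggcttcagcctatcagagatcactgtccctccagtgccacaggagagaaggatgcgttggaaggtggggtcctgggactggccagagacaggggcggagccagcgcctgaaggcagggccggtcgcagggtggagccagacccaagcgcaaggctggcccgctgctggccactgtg
Ptgs1 chr2:36230176-36230475 (plus strand): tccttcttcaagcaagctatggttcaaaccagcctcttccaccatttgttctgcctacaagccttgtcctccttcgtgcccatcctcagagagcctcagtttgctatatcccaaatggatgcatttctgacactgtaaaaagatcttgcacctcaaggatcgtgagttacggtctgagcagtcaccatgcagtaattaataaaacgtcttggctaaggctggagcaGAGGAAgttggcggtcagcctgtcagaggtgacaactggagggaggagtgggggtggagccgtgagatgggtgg
Hpgds chr6:65144681-65144980 (minus strand): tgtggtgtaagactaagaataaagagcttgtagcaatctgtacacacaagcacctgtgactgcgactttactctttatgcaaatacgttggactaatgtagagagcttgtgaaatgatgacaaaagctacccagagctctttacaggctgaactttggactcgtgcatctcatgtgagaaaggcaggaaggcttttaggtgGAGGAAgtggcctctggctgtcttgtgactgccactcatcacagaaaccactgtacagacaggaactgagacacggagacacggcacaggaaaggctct
The window of Ptgs1 lies at an annotated start within the span of the gene. Its GAGGAA begins 24 bases before the start, that of Hpgds 49 bases before it and that of Alox5 136 bases before it. In Ptgs1 and Hpgds the capitals are followed by the letters gt, which complete the longer form. These are letter matches in the reference, and no binding was measured.

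Pla2g4a (Entrez 18783; GRCm38 chr1:149829618-149961290) encodes cytosolic phospholipase A2 alpha, the enzyme that releases arachidonate. It had 41.3, 49.4 and 45.5 CPM in untreated libraries, 41.3, 45.8 and 50.7 CPM at day 2, 44.7, 42.3 and 40.2 CPM at day 4 and 67.4, 63.3 and 68.5 CPM at day 6. The 3 day 6 libraries stood above all others, and the earlier groups overlapped. Relative to untreated cells its log2 fold change was 0.55 at day 6 (SE 0.10, adjusted p = 3.32e-04, edgeR). At days 2 and 4 it was not called, with 95% intervals of the log2 fold change of -0.21 to 0.25 at day 2 and -0.33 to 0.13 at day 4. The call at day 6 depends on the scaling. With library totals in place of TMM factors the log2 fold change of Pla2g4a was 0.03 (adjusted p = 0.788), and its mean level was 51.5 CPM at day 6 and 50.4 CPM in untreated libraries. That scaling moved the median of all genes at day 6 to -0.52, and the share of calls in the higher direction was 25.2%, against 51.6% with TMM factors.

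Alox5 (Entrez 11689; chr6:116410071-116461178), which encodes 5-lipoxygenase, changed most. Its level was 21.98, 20.05 and 19.4 CPM in untreated libraries, 34.9, 38.99 and 70.4 CPM at day 2, 65.1, 109 and 82.3 CPM at day 4 and 627, 405 and 569 CPM at day 6. Every library on Dox exceeded every untreated library, and days 2 and 4 overlapped through the high replicate 3 of day 2. The mean was 533 ± 115 CPM at day 6 and 20.5 ± 1.34 CPM in untreated libraries (SD, n = 3 each), a 26.1-fold ratio. The log2 fold change against untreated was 2.06 at day 4 (SE 0.29, adjusted p = 2.03e-04) and 4.70 at day 6 (SE 0.31, adjusted p = 2.02e-07, edgeR). At day 2 it was 1.24 (SE 0.29) and missed the threshold (adjusted p = 0.0652), although DESeq2 called it (adjusted p = 7.70e-04) and so did edgeR with library totals (adjusted p = 0.0448). The step of day 4 over day 2 (log2 fold change 0.82, adjusted p = 0.0450) lost its call under 14 alternatives, with adjusted p up to 0.162. Of these, 9 left out 1 library each (any untreated replicate, day 2 replicate 1 or 2, day 4 replicate 2 or 3, day 6 replicate 1 or 3). With library totals the ratio at day 6 was 18.0-fold. The reference places the noncoding model Gm38880 over Alox5, and it has no row in the count files. The strand setting of the counting is not given in the sources used here.

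Mature neutrophil markers were called higher at day 6 for 12 of 12 genes and at day 4 for 8. One of them, Il1b, averaged 0.232 CPM in untreated libraries, 0.276 CPM at day 2 and 6.23 CPM at day 6. It had enough reads to be tested only through the later days, where it is high, so its calls are not independent of that filter. Among day 6 libraries the sum of the 12 markers was lowest in replicate 2 (63480 CPM), which also had the lowest Alox5 of that day. Among day 2 libraries the sum was highest in replicate 3 (1977 CPM), which had the highest Alox5 of that day. At day 2 the sums (891 to 1977 CPM) overlapped those of untreated libraries (858 to 1921 CPM), where Alox5 did not overlap. Among untreated libraries the lowest sum stood in replicate 1, which had the highest Alox5. The part of these cells in the change of Alox5 was not tested, and in bulk RNA fewer cells of a type and less RNA per cell cannot be told apart.

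Alox5ap (Entrez 11690; chr5:149265004-149288153) encodes FLAP, the membrane protein that presents arachidonate to 5-lipoxygenase. It stood at 90.3, 128 and 102 CPM in untreated libraries, 122, 120 and 139 CPM at day 2, 254, 266 and 269 CPM at day 4 and 498, 437 and 459 CPM at day 6. Untreated and day 2 libraries overlapped, and days 4 and 6 each lay above all earlier libraries. The log2 fold change against untreated was 0.25 at day 2 (95% interval -0.02 to 0.52, not called, adjusted p = 0.370), 1.30 at day 4 (SE 0.12, adjusted p = 5.63e-06) and 2.12 at day 6 (SE 0.12, adjusted p = 2.86e-08, edgeR). Spi1 itself, for comparison, changed by 0.81, 2.06 and 2.87 at days 2, 4 and 6. Alox5ap was also called higher at day 4 than at day 2 (1.05, adjusted p = 8.48e-05) and at day 6 than at day 4 (0.82, adjusted p = 1.47e-04). For day 4 over day 2, 2 members were called higher and 0 lower, against 15% of all genes higher, 10.2% lower and 25.2% in either direction. For day 6 over day 4, 5 members were called higher and 0 lower, against 23.6% of all genes higher, 22.6% lower and 46.3% in either direction. The libraries of the 2 days did not overlap, in either direction, for 4 members in the first step and 5 in the second, and for 50.1% and 53.1% of all genes. In the first step Alox5ap and Ptgs1 lay above and Lta4h and Ptges below, and in the second all 5 lay above.

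Lta4h (Entrez 16993; chr10:93453396-93484896), the hydrolase that makes leukotriene B4, had the highest mean level per gene length of the 10 genes in each group. It had 842, 883 and 809 CPM in untreated libraries, 785, 768 and 911 CPM at day 2, 765, 730 and 617 CPM at day 4 and 2033, 1086 and 1984 CPM at day 6. All day 6 libraries exceeded the rest, though replicate 2 lay far below the other two. The log2 fold change at day 6 was 1.01 (SE 0.19, adjusted p = 5.26e-04, edgeR) against untreated and 1.27 against day 4 (adjusted p = 2.71e-04). With library totals the day 6 value against untreated was 0.47 (adjusted p = 0.0194). All 3 day 4 libraries lay below all 3 untreated libraries, but the log2 fold change of -0.26 was not called (95% interval -0.70 to 0.18, adjusted p = 0.290). It was called lower when only the groups compared were fitted (adjusted p = 0.0380) and without day 6 replicate 2 (adjusted p = 0.0288). The neutrophil marker sum was lowest in the same day 6 replicate 2, and its part in the values of Lta4h was not tested.

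Ltc4s (Entrez 17001; chr11:50236461-50238532), the synthase of leukotriene C4, had 3, 1 and 1 reads in untreated libraries. The day 2 libraries had 0, 0 and 1 reads, those of day 4 also 0, 0 and 1, and those of day 6 had 1, 2 and 1. That is 11 reads over 12 libraries, with 4 libraries at 0. A count of 0 allows up to 3 reads, and at this depth only a large difference could be seen. Alox12 (Entrez 11684; chr11:70241457-70255380), the platelet-type lipoxygenase, had 2, 1 and 1 reads in untreated libraries. The day 2 libraries had 3, 2 and 2 reads, those of day 4 had 3, 2 and 1, and those of day 6 had 3, 1 and 1. The groups of both genes overlap or differ by single reads.

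**Figure D2:**
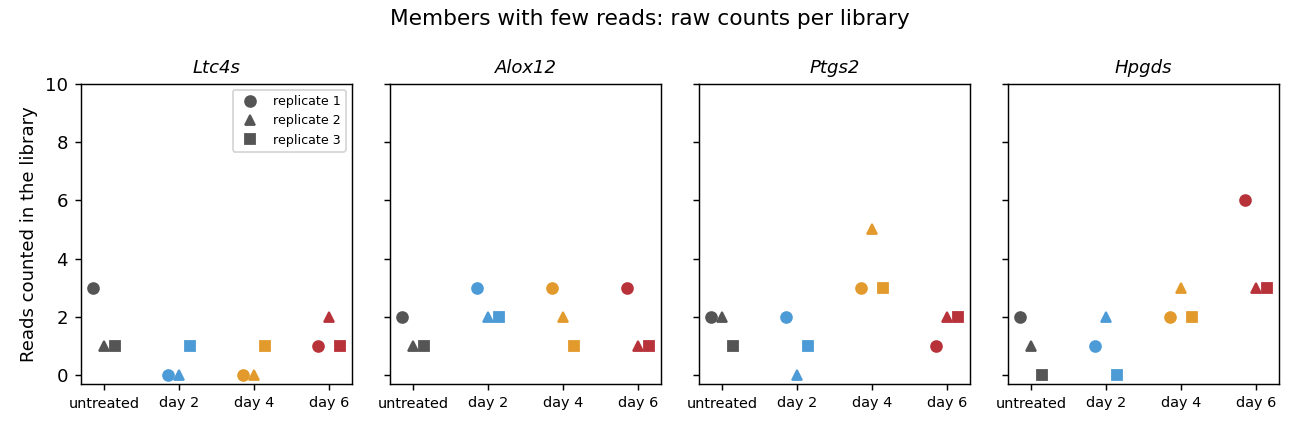
Raw reads counted in each library for the 4 members with too few reads to test, untreated to day 6, with symbols for replicates. No library has more than 6 reads of any of them, and Hpgds is highest at day 6 with 6, 3 and 3 reads.

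Ptgs1 (Entrez 19224; chr2:36216742-36258593) encodes cyclooxygenase-1, the constitutive cyclooxygenase. Its level was 87.8, 121 and 125 CPM in untreated libraries, 214, 202 and 162 CPM at day 2, 232, 242 and 220 CPM at day 4 and 301, 233 and 288 CPM at day 6. Every library on Dox exceeded every untreated library, day 4 lay above day 2, and days 4 and 6 overlapped. The log2 fold change against untreated was 0.79 at day 2 (SE 0.15, adjusted p = 0.0216), 1.06 at day 4 (SE 0.15, adjusted p = 1.31e-04) and 1.30 at day 6 (SE 0.15, adjusted p = 7.39e-06, edgeR). Neither later step was called, with 95% intervals of -0.07 to 0.60 for day 4 over day 2 and -0.09 to 0.58 for day 6 over day 4. The day 2 call was lost without untreated replicate 1 (log2 fold change 0.65, adjusted p = 0.0852), without day 2 replicate 1 (adjusted p = 0.107) and without day 2 replicate 2 (adjusted p = 0.109). With library totals the log2 fold change of Ptgs1 at day 6 was 0.78 against untreated and -0.17 against day 4. On that scale days 4 and 6 did not overlap, and all day 6 libraries (197 to 221 CPM) lay below all day 4 libraries (225 to 246 CPM). The difference between days 4 and 6 was called under neither scaling.

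Ptgs2 (Entrez 19225; chr1:150100031-150108234), the inducible cyclooxygenase-2, stayed at few reads beside Ptgs1. It had 2, 2 and 1 reads in untreated libraries. The day 2 libraries had 2, 0 and 1 reads, those of day 4 had 3, 5 and 3, and those of day 6 had 1, 2 and 2. The day 4 libraries lay above the other groups by 1 read or more. With 24 reads in all, Ptgs2 was not tested, and in a fit without the filter on low counts it was called in no comparison of 2 days or of a day with untreated cells.

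Ptges (Entrez 64292; chr2:30889471-30931020), microsomal prostaglandin E synthase-1, makes prostaglandin E2 from prostaglandin H2. It had 11.8, 10.02 and 9.19 CPM in untreated libraries, 12.2, 13.9 and 13.8 CPM at day 2, 12.004, 10.4 and 9.69 CPM at day 4 and 63.8, 31.2 and 52.7 CPM at day 6. The day 6 libraries lay above all others, with replicate 2 lowest. At day 6 the log2 fold change was 2.24 (SE 0.22, adjusted p = 2.58e-06) against untreated and 2.20 (SE 0.22, adjusted p = 1.63e-05, edgeR) against day 4. It was not called at day 2 (0.36, 95% interval -0.18 to 0.90) or day 4 (0.05, 95% interval -0.50 to 0.60), although its 3 day 2 libraries lay just above the untreated ones. With library totals the value at day 6 was 1.71. Noncoding models of the reference without a row in the count files overlap Ptges and Alox12 as well.

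Hpgds (Entrez 54486; chr6:65117293-65144981), the hematopoietic prostaglandin D synthase, had 2, 1 and 0 reads in untreated libraries. The day 2 libraries had 1, 2 and 0 reads, those of day 4 had 2, 3 and 2, and those of day 6 had 6, 3 and 3. The 3 day 6 libraries lay above all untreated libraries, by 12 reads against 3 over the groups. The gene did not pass the filter on low counts. In the fit without that filter it was called higher at day 6 than in untreated cells with an adjusted p of 0.0481 (edgeR), and the summed level of the day 6 group had an exact 95% Poisson interval of 0.387 to 1.31 CPM, against 0.0292 to 0.414 CPM in the untreated group, which covers counting error only.

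**Figure D3:**
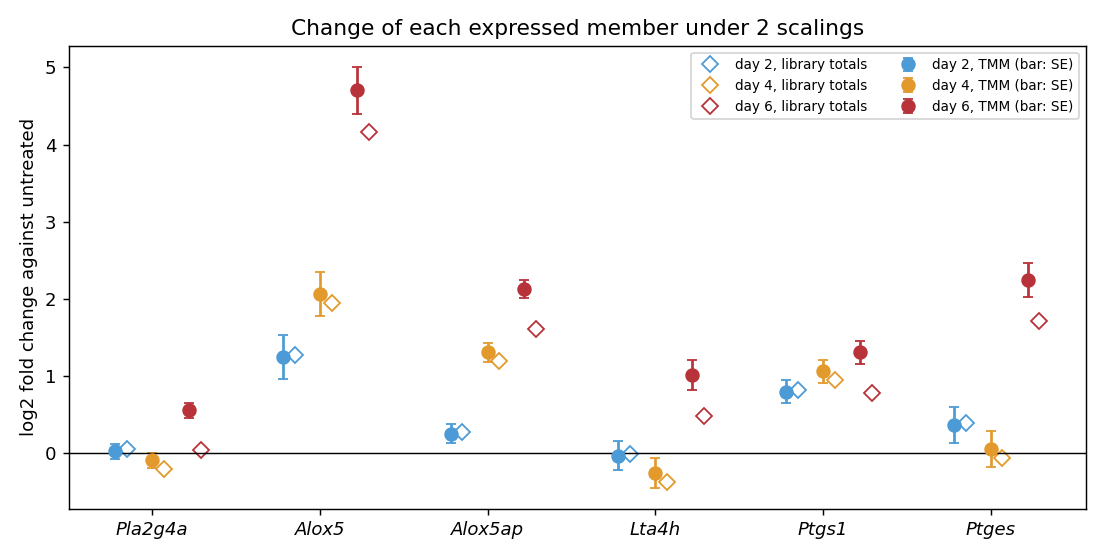
Log2 fold change of the 6 tested genes at days 2, 4 and 6 against untreated cells, with TMM factors (filled, bars show the SE) and with library totals (open). At day 6 library totals give lower values for all 6 genes, 4.17 for Alox5 and 0.03 for Pla2g4a.

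Per gene length the leukotriene branch held the most abundant transcripts of the 10. In TPM, counts divided by the deposited gene lengths and scaled to a common total, day 6 cells had 1157 ± 255 for Lta4h, 781 ± 52.4 for Alox5ap, 267 ± 28.6 for Alox5, 136 ± 2.51 for Ptgs1, 33.5 ± 2.83 for Pla2g4a and 18.9 ± 4.47 for Ptges (SD, n = 3). Untreated cells had 985 ± 46.2 TPM for Lta4h, 300.1 ± 46.5 for Alox5ap, 93.2 ± 14.8 for Ptgs1, 38.4 ± 2.43 for Pla2g4a, 17.5 ± 1.65 for Alox5 and 6.84 ± 1.07 for Ptges (SD, n = 3). Alox5 thus stood above Ptgs1 and Pla2g4a at day 6 and below both in untreated cells. At day 2 Alox5 (31.2 to 62.1 TPM) and Pla2g4a (36.6 to 44.4 TPM) overlapped, and at day 4 the libraries of Lta4h reached 681 TPM at the lowest and those of Alox5ap 719 TPM at the highest. On this scale day 6 replicate 2 had 863 TPM of Lta4h, below the untreated libraries (932 TPM or more).

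Other genes of the pathway were taken from 6 lists of 70 genes, of which 44 were tested. Of these 44, 2 were called higher and 0 lower at day 2, 18 higher and 7 lower at day 4, and 21 higher and 9 lower at day 6. The shares of all genes called are those given above for the members. The median log2 fold change over the 44 was 0.09, 0.32 and 0.51 at days 2, 4 and 6.

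Among phospholipases and genes of arachidonate handling, 7 of 14 were called higher and 2 lower at day 6, and the median log2 fold change was 0.63. Lpcat2, an acyltransferase that remakes phospholipids and forms platelet-activating factor, had 167, 97.7 and 141 CPM at day 6 and 0.718 to 2.09 CPM in untreated libraries (log2 fold change 6.71, adjusted p = 3.33e-08, edgeR). Anxa1, which encodes annexin A1, a known inhibitor of phospholipase A2 activity, had 2448, 1937 and 2460 CPM at day 6 and 173 to 226 CPM in untreated libraries (3.52, adjusted p = 3.09e-09). Acsl1, which activates fatty acids with coenzyme A, had 461.5 to 734 CPM at day 6 and 177 to 189 CPM in untreated libraries. Pla2g12a, a secreted phospholipase A2, fell to 1.76 to 5.14 CPM at day 6, against 13.1 to 14.8 CPM in untreated libraries (-2.15, adjusted p = 3.99e-05). Pla2g7, the hydrolase of platelet-activating factor, was called higher at day 6 with 10.4, 80.7 and 10.3 CPM, against 1.29 to 2.78 CPM in untreated libraries, so its mean rests on replicate 2. Its call at day 4 was lost under 13 alternatives (adjusted p up to 0.119), among them the omission of any 1 library of the untreated, day 2 or day 4 groups.

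Of the other lipoxygenases and leukotriene enzymes, 4 of 11 were called higher and 2 lower at day 6, with a median of 0.34. Cyp4f18, the cytochrome that inactivates leukotriene B4 in mouse neutrophils, had 2.41, 3.20 and 2.44 CPM in untreated libraries, 7.44, 11.5 and 11.3 CPM at day 2, 43.5, 71.6 and 56.5 CPM at day 4 and 104, 180 and 86.3 CPM at day 6. No library of one group overlapped another group, and the log2 fold change against untreated was 1.90, 4.40 and 5.51 at days 2, 4 and 6 (adjusted p = 0.0484, 5.38e-06 and 1.85e-07, edgeR). Its day 2 call was lost under 12 alternatives, with adjusted p up to 0.197, among them the omission of any untreated or day 2 library, of day 4 replicate 3 and of day 6 replicate 1. Unlike Alox5, Cyp4f18 was highest at day 6 in replicate 2. Cotl1, an actin-binding protein that also binds 5-lipoxygenase, was called higher at all 3 days, with 1300, 1111 and 1229 CPM at day 6 and 61.8 to 82.3 CPM in untreated libraries (4.13, adjusted p = 2.79e-09), and its day 2 call (0.77, adjusted p = 0.0251) was lost without untreated replicate 1 or 3 and without day 2 replicate 2 or 3, with adjusted p up to 0.129. Mgst1, a microsomal glutathione transferase of the family of FLAP and leukotriene C4 synthase, had 428 to 644 CPM at day 6 and 190 to 234 CPM in untreated libraries. Ephx2, the soluble epoxide hydrolase, fell to 0, 0.804 and 0.195 CPM at day 6, against 6.26 to 7.04 CPM in untreated libraries.

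Alox15, the mouse leukocyte lipoxygenase that oxygenates arachidonate mainly at the 12 position, was uneven between libraries. It had 8.55, 160 and 93.5 CPM at day 4, 27.7, 5.79 and 22.1 CPM at day 6 and 0.835 to 1.72 CPM in untreated libraries. It was called higher at day 4 by 6.25 on the log2 scale (adjusted p = 0.00162) and at day 6 by 3.98 (adjusted p = 0.0158, edgeR), but limma voom called it at neither day, and without day 6 replicate 1 the day 6 call was lost (adjusted p over these alternatives up to 0.236). The summed level of 9 eosinophil markers was 61.7, 1071 and 567 CPM in the same 3 day 4 libraries and 22.4 to 52.9 CPM in untreated libraries. Its part in the values of Alox15 was not tested.

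Of 6 tested prostanoid synthases outside the 10, 2 were called higher and 2 lower at day 6 (median -0.43). Tbxas1, thromboxane A synthase, was called higher at day 6 (log2 fold change 2.75, adjusted p = 0.00112, edgeR) at a level too low for the naming rule, and Ptges2, another prostaglandin E synthase, had 30.3 to 37.7 CPM at day 6 and 18.7 to 22.4 CPM in untreated libraries, a call lost with library totals (adjusted p = 0.118). Cbr1, a carbonyl reductase that acts on prostaglandin E2, fell to 6.44 to 14.95 CPM at day 6, against 20.3 to 23.8 CPM in untreated libraries (-1.16, adjusted p = 0.00104). Akr1b3, an aldose reductase with prostaglandin F synthase activity, was also called lower at day 6 (-0.74, adjusted p = 0.0208), and its call was lost when only the groups compared were fitted and without untreated replicate 2, day 6 replicate 1 or day 6 replicate 3 (adjusted p up to 0.0840).

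Of 5 tested genes of transport and breakdown, 1 was called higher and 3 lower at day 6 (median -0.35). Hpgd, 15-hydroxyprostaglandin dehydrogenase, which starts the inactivation of prostaglandins, had 1.99, 2.09 and 1.72 CPM in untreated libraries, 2.89, 3.84 and 3.67 CPM at day 2, 66.5, 92.7 and 108 CPM at day 4 and 45.2, 107 and 59.9 CPM at day 6. Days 4 and 6 overlapped, and both lay above the rest. Monocyte and eosinophil markers were also called higher at day 4, as given above, and their part in the values of Hpgd, Ptger4 and Pparg was not tested. The log2 fold change was 5.51 at day 4 (adjusted p = 1.33e-06) and 5.18 at day 6 (adjusted p = 3.94e-07, edgeR). The prostaglandin reductases Ptgr1, Ptgr2 and Zadh2 (PTGR3) fell at day 6 by 0.53, 0.35 and 0.56 on the log2 scale.

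Of 8 listed receptors of leukotrienes and lipoxins, only 3 had enough reads to be tested. All 3 were called higher at day 6 (median 4.55), and 1 at day 4. Ltb4r1, the high-affinity receptor of leukotriene B4, had 47.1, 68.2 and 43.0 CPM in untreated libraries, 42.1, 50.9 and 80.6 CPM at day 2, 87.5, 113 and 65.3 CPM at day 4 and 603.5, 293 and 544 CPM at day 6. Only day 6 lay apart from untreated (log2 fold change 3.18, adjusted p = 1.41e-05), and its day 2 replicate 3 and day 6 replicate 2 were the highest and the lowest of their groups, as for Alox5. Fpr2, a formyl peptide receptor that also binds lipoxin A4 and annexin A1, had 249.1, 235 and 246 CPM at day 6 and 1.58 to 4.04 CPM in untreated libraries (6.62, adjusted p = 2.79e-09, edgeR). Cmklr1, a chemerin receptor also described for resolvin E1, was called higher at day 6 with 3.41, 17.0 and 3.51 CPM, against 0.278 to 0.431 CPM in untreated libraries. With 2, 2 and 3 reads in untreated libraries, it passed the filter on low counts only through the later days, where it is high. Its call and its share in the median are therefore not independent of that filter. The highest day 6 library of Cmklr1 is replicate 2, which also had the highest monocyte and macrophage marker sum of that day (4666 CPM, against 2860 and 2845 CPM in replicates 1 and 3). The marker sum was 3559 to 4784 CPM in untreated libraries and 6314 to 6454 CPM at day 4, where Cmklr1 had 2.10 to 4.67 CPM. The largest part of that sum was Ly6c2, which averaged 4168 CPM in untreated libraries, 4324 CPM at day 4 and 1969 CPM at day 6. Of the 12 monocyte and macrophage markers, 10 were called higher and 1 lower at day 6. The part of those cells was not tested.

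Of 5 tested prostanoid receptors, 4 were called higher and 0 lower at day 6 (median 1.26). Ptger4, a receptor of prostaglandin E2 that raises cyclic AMP, had 48.6, 53.8 and 53.3 CPM at day 4, 40.3, 35.5 and 49.0 CPM at day 6 and 11.8 to 20.8 CPM in untreated libraries (log2 fold change 1.65 at day 4 and 1.33 at day 6, adjusted p = 1.69e-05 and 2.73e-05, edgeR). Ptger1, another receptor of prostaglandin E2, had 88.6 to 114 CPM at day 6 and 40.2 to 46.3 CPM in untreated libraries. Ptgir, the prostacyclin receptor, was called higher at day 6 (0.77, adjusted p = 0.0117), a call lost with upper-quartile scaling, with library totals and without day 6 replicate 1 (adjusted p up to 0.318). The fourth, Pparg, a nuclear receptor also bound by a prostaglandin D2 metabolite, was called at day 4 (2.78) and day 6 (2.03) at a low level.

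**Figure D4:**
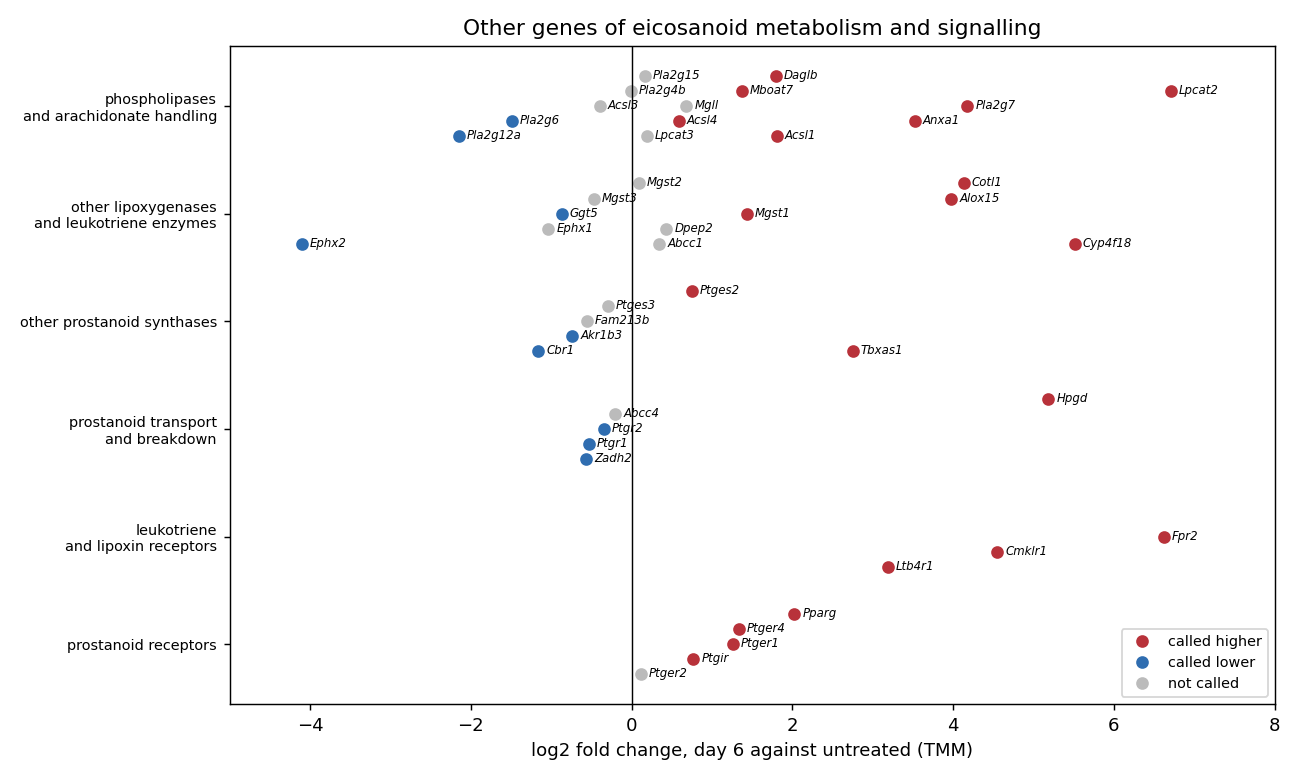
Log2 fold change at day 6 against untreated cells (TMM) of the 44 tested genes of the 6 pathway lists, each point a gene, red where called higher, blue where called lower and grey where not called; height within a list only separates the labels. Of the 44, 21 are higher and 9 lower, from Ephx2 at -4.10 to Lpcat2 at 6.71.

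The genes most like each tested member were found by the root mean square difference of centred log2 CPM over the 12 libraries, which share their groups and scaling. For Alox5 they were Marcksl1 (0.23) and Tes (0.26), for Alox5ap Actb (0.12) and Klf6 (0.13), and for Ptgs1 Sft2d2 (0.15) and Nfkbie (0.16). Those nearest to Lta4h were Rnf19a and Mdm4 (0.11 each), to Ptges Usp46 and Prkd2 (0.19 each) and to Pla2g4a Ddx3x and Snx18 (0.09 each). Klf6, for one, averaged 97.5, 119, 236 and 469 CPM in the 4 groups from untreated to day 6, where Alox5ap averaged 107, 127, 263 and 465 CPM.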

How the data were processed

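Total RNA of GFP-sorted AML246 cells was sequenced in 12 libraries. The authors deposited raw read counts per Entrez gene and a gene length, per the file headers. The submitters' processing notes list the mm10 build, featureCounts, CASAVA 1.8.2, limma 3.22.0 and edgeR 3.8.2, and neither aligner nor strand setting is stated there. Identifiers were named from RefSeq GRCm38.p6 (25275) and GENCODE (18), and the 1886 unnamed rows held 0.487% to 1.06% of counts.

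The count tests used edgeR 4.0.16 under R 4.3.3 (filterByExpr, TMM, robust glmQLFit with 8 residual degrees of freedom), all 12 libraries in 1 fit with group as the term. Tests were two-sided, with Benjamini-Hochberg adjustment over 12057 genes at 0.05. SE was derived from the fold change and its F, and 95% intervals use those residual degrees. The common coefficient of variation between replicate libraries, beyond counting error, was 14.3%. TPM used the deposited lengths. The fit was checked on simulated data with 200 genes changed.

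The members, lists and motifs were chosen with earlier results of these data known. Named pathway genes were called in any comparison, with a mean of at least 5 CPM in 1 group, up to 5 per list by size at day 6. Genes named beside these (Tbxas1, Pparg) were added after the values were seen. Alternatives were DESeq2 1.42.0, limma voom (limma 3.58.1), RLE, upper-quartile and library-total scaling, no filter, 5 CPM in 3 libraries, fits of the compared groups alone, a block for the replicate number, and leaving out libraries 1 at a time.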

Additional observations from a re-analysis of the deposited data

Results flagged for a closer look

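In at least 1 step between successive days, the change differed from 0 for 5 of the 6 tested members (edgeR quasi-likelihood test, adjusted over all genes). Of all genes tested, 25.2% were called in either direction for day 4 over day 2 and 46.3% for day 6 over day 4. Alox5 was higher at day 4 than at day 2 by 0.82 on the log2 scale (adjusted p = 0.0450), with overlapping libraries, and this call was lost under 14 alternatives. It was higher at day 6 than at day 4 by 2.64 (adjusted p = 3.10e-05). Alox5ap gained 1.05 at day 4 over day 2 (adjusted p = 8.48e-05) and 0.82 at day 6 over day 4 (adjusted p = 1.47e-04). The day 6 over day 4 difference was 1.27 for Lta4h (adjusted p = 2.71e-04), 2.20 for Ptges (adjusted p = 1.63e-05) and 0.65 for Pla2g4a (adjusted p = 2.75e-04). In all of these steps from day 4 to day 6 the 3 libraries of day 6 lay above the 3 of day 4 in TMM-scaled CPM. The step of Pla2g4a depends on the scaling. With library totals it was 0.24 (adjusted p = 0.0476, edgeR). In TPM the Pla2g4a libraries of day 6 (30.9 to 36.5) overlapped those of day 4 (32.2 to 35.6). In TMM-scaled CPM the libraries of days 4 and 6 did not overlap, in either direction, for 53.1% of all genes.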

How the results depend on the processing

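Of 630 alternative values of the 30 member fold changes, 600 kept their direction and their side of the threshold, 18 lost a call, 4 gained one and 8 changed sign, all 8 of them not called. The sign changes were Ptges at day 4 with upper-quartile factors (-0.045) and library totals (-0.070), Ptgs1 at day 6 over day 4 with library totals (-0.17), and 5 values with a library left out, where Pla2g4a at day 2 ranged from -0.061 (without day 2 replicate 3; also below 0 without untreated replicate 1) to 0.090, Lta4h at day 2 from -0.12 to 0.0061 (without day 2 replicate 2) and Ptges at day 4 from -0.043 (without day 4 replicate 1; also below 0 without untreated replicate 3) to 0.15; the cause was not tested.

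Of 440 alternative counts, 387 were within 1.5 times. Members called higher at day 2 numbered 2 with DESeq2 and 2 with library totals, and 0 to 1 with each library left out. Members called lower at day 4 numbered 1 with only the groups compared and 0 to 1 with a library left out. Members higher at day 4 over day 2 numbered 1 with upper-quartile factors, library totals, no filter and only the groups compared, and 1 to 2 with a library left out. Other pathway genes higher at day 2 numbered 1 with limma voom, upper-quartile factors, library totals and no filter, and 0 to 3 with a library left out; those lower at day 2 numbered 1 with only the groups compared, and 0 to 1. Those lower at day 6 numbered 16 with library totals, where 6764 of all 12057 genes were called lower (3967 with TMM factors). For day 4 over day 2, 8 to 17 were higher with a library left out (8 without day 4 replicate 2), 2 were lower without a filter, and 1 to 6 lower with a library left out. For day 6 over day 4, 11 were lower with upper-quartile factors, 18 with library totals and 3 with only the groups compared, and 1 to 12 with a library left out (12 without day 6 replicate 2, 1 without day 6 replicate 1); over all genes 3949, 6263 and 2034 were called lower under the first 3 of these settings and 2726 in the reported fit.

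With the replicate number as a block, members called higher at day 4 over day 2 numbered 1, since Alox5 had an adjusted p of 0.0521. Residuals of same-numbered libraries correlated by 0.00567 on average over 18 pairs, so the numbers were not taken to pair samples. Depth limits Ltc4s, Alox12, Ptgs2 and Hpgds, for which only large changes could be seen.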
